A study of Mus musculus with 12 samples.

Results

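Trem2 and Tyrobp form a receptor and adaptor pair of microglia, the resident macrophages of the brain. Trem2 binds lipids and lipoproteins at the cell surface but cannot signal alone, and Tyrobp (also called DAP12) carries the immunoreceptor tyrosine-based activation motif (ITAM) that recruits the kinase Syk. Fc receptors use the related adaptor Fcer1g in the same way, and microglia that engulf debris are known to raise these genes together with lysosomal and lipid genes. The 10 genes described here are Trem2, Tyrobp, Fcer1g, Fcgr3, Clec7a, Cd68, Cd52, Apoe, Lpl and Spp1. They were chosen by name, with earlier results of the 118Q comparison below in view. The array annotation used here gives 11 probe sets to 9 of them, out of 45101 probe sets in all. Spp1, which codes for the secreted protein osteopontin, has no probe set named in that annotation and is not analysed here. All 9 of the others had a probe set above the filter on dim signals, among 12672 genes in all.

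The samples were cerebella of mice 6 weeks old on a C57BL/6 background, 1 array for each of 12 mice. The 118Q knockin group (MPI 118Q/118Q) carries on both alleles of the calcium channel gene Cacna1a a repeat coding for 118 glutamines, and its reference is the wild type littermates of that line. The 11Q knockin group (MPI 11Q/11Q) carries a repeat of 11 glutamines, again on both alleles, and is set against wild type littermates of its own line. Each of the 4 groups has 3 arrays. The series asks about an early inflammatory response in this model of spinocerebellar ataxia type 6 (SCA6). Nothing in the labels says how the groups were spread over litters or array batches.

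Values are log2 levels per probe set, so a difference of 1 is a doubling; levels of different probe sets are not set against each other. Arrays correlated with each other at 0.980 to 0.995 over all probe sets. Markers of the tissue were bright: the granule cell gene Gabra6 averaged 10.5 and the Purkinje cell gene Calb1 10.6 over the 12 arrays. The microglial identity genes P2ry12 (3.02) and Cx3cr1 (3.50) were above the filter, and Tmem119 was as well, while Aif1 and Itgam were below it. The RNA came from whole cerebellum, so more microglia and more RNA per microglial cell cannot be told apart.

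Promoter windows of 5 members, 4 of them receptors or adaptors, are shown so that the letters before the genes that differed can be compared. Each is the stretch of 250 bases just before the gene's start in RefSeq (build GRCm38.p6), written 5′ to 3′ on the gene's strand. Capitals mark GAGGAA or its reverse complement TTCCTC, the core of sites bound by PU.1, the transcription factor that defines the microglial and macrophage lineage. The windows are Trem2 at chr17:48346151-48346400 (plus strand), Fcer1g at chr1:171234350-171234599 (minus strand), Fcgr3 at chr1:171059395-171059644 (minus strand), Clec7a at chr6:129472780-129473029 (minus strand) and Cd68 at chr11:69666171-69666420 (minus strand).
Trem2: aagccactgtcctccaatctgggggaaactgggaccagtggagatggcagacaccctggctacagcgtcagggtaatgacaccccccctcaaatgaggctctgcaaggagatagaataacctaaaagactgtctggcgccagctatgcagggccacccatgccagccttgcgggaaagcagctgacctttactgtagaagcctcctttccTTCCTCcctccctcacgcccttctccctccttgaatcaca
Fcer1g: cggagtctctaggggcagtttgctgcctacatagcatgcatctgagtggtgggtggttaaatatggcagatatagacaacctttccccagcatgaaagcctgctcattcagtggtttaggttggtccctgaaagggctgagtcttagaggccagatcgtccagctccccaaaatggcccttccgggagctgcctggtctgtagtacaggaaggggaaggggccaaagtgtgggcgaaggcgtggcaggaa
Fcgr3: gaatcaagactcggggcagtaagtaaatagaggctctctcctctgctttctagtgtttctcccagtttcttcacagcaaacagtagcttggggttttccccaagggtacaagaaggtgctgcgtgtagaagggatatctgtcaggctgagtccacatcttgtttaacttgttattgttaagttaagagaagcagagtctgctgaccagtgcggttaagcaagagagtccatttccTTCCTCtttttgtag
Clec7a: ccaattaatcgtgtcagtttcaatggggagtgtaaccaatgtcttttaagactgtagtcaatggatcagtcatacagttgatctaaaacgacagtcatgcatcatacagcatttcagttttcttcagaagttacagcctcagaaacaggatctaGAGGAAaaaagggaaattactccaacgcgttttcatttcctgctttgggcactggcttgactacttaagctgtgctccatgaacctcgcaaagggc
Cd68: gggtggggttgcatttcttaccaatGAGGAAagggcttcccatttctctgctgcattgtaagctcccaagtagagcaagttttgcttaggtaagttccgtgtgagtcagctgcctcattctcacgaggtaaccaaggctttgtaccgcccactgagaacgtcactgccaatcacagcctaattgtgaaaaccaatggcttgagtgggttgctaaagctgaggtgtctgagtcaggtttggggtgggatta

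RefSeq's table held 12 such windows for 7 of the 10 genes, and 9 of the 12 windows, from 6 genes, contain GAGGAA on either strand. Of all 32851 windows of this length, 23.3% contain it. Windows of 1 gene can overlap, so they are not independent, and a match is a description of letters and not a bound site. In the window of Trem2 the match begins 40 bases before the gene's start, and in those of Fcgr3, Clec7a and Cd68 it begins 15, 96 and 225 bases before it. The window of Fcer1g has none. The AP-1 motif TGANTCA was found in 2 of the 12 windows, those of Trem2 and Cd68, and in 6.75% of all windows. The E-box CACGTG was in 0 of the 12 and in 6.02% of all.

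In 118Q knockin cerebella the receptor and adaptor genes were higher than in the wild type littermates. This is the contrast that guided the choice of the genes, so its values are given as a description with no test. Trem2 read 3.82, 3.46 and 3.58 in 118Q knockin cerebella, against 2.97, 2.94 and 2.63 in 118Q wild type cerebella. Tyrobp read 6.05, 5.36 and 5.78 in 118Q knockin cerebella, against 4.50, 5.06 and 4.55 in 118Q wild type cerebella. For both genes every knockin array lay above every littermate array. The differences were 0.77 ± 0.13 for Trem2 (SE of the model over all genes, 3 against 3 arrays) and 1.03 ± 0.19 for Tyrobp, which is 1.71-fold and 2.04-fold. Ranked from the largest positive difference among the 12672 genes, Tyrobp was number 5 and Trem2 number 27.

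Fcer1g, the adaptor of Fc receptors, read 4.76, 4.39 and 4.48 in 118Q knockin cerebella and 4.28, 4.20 and 3.87 in 118Q wild type cerebella. Fcgr3, an activating receptor for immunoglobulin G that signals through Fcer1g, read 3.80, 3.46 and 3.73 in 118Q knockin cerebella and 2.71, 3.15 and 3.05 in 118Q wild type cerebella. Clec7a, the beta-glucan receptor dectin-1, read 3.36, 1.60 and 2.06 in 118Q knockin cerebella and 1.48, 1.58 and 1.27 in 118Q wild type cerebella. The ranges did not overlap for any of these 3 genes, but the lowest Clec7a value in the knockin, 1.60, was barely above the highest of its littermates. Differences were 0.43 ± 0.15 for Fcer1g, 0.69 ± 0.19 for Fcgr3 and 0.90 ± 0.32 for Clec7a. Clec7a rested on knockin replicate 1, and without that array its difference was 0.39. It also passed the filter on dim signals only through the knockin: its mean over the 12 arrays was 1.59 against a filter at 1.58, and its mean over the other 9 arrays was 1.34.

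**Figure D1:**
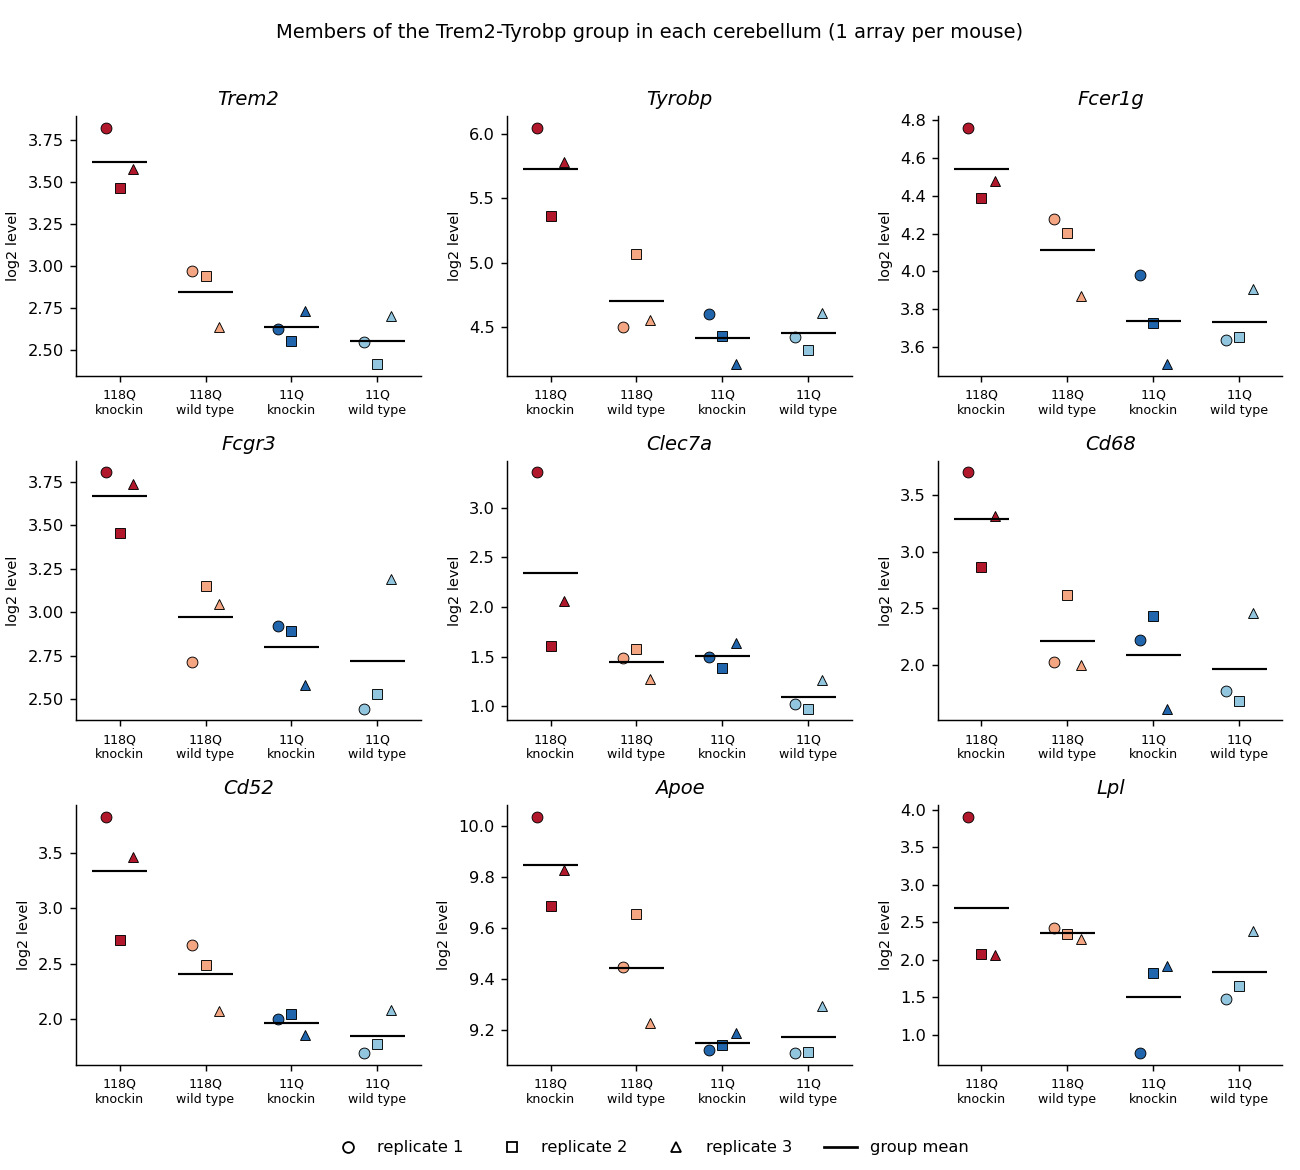
Log2 level of each of the 9 genes (y axis, own scale in each panel) in each of the 12 cerebella, by group; points are arrays, their shapes mark the replicate number, and bars are group means. Knockin replicate 1 of the 118Q line is the highest point of all 9 panels, and in Clec7a and Lpl it stands far above the other knockin arrays.

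Cd68 differed by more than any other of the 9 genes. Cd68, a lysosomal membrane protein of phagocytes, read 3.70, 2.86 and 3.31 in 118Q knockin cerebella, against 2.02, 2.62 and 2.00 in 118Q wild type cerebella. Cd52, a small glycoprotein on the surface of leukocytes, read 3.83, 2.71 and 3.46 in 118Q knockin cerebella, against 2.67, 2.49 and 2.07 in 118Q wild type cerebella. Neither gene's ranges overlapped, although the lowest knockin value of Cd52, 2.71, was close to the highest littermate value of 2.67. The differences were 1.08 ± 0.28 for Cd68, number 2 of all genes from the top, and 0.92 ± 0.24 for Cd52, number 13.

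The lipid genes were less uniform. Apoe is the main apolipoprotein of the brain, which astrocytes make in quantity and reactive microglia also make. It read 10.04, 9.69 and 9.83 in 118Q knockin cerebella and 9.45, 9.65 and 9.23 in 118Q wild type cerebella. Its lowest knockin value lay just above the highest littermate value, and it differed by 0.41 ± 0.13. Lpl, lipoprotein lipase, which splits triglycerides, read 3.90, 2.08 and 2.07 in 118Q knockin cerebella, against 2.43, 2.34 and 2.28 in 118Q wild type cerebella. Knockin replicates 2 and 3 were thus below every littermate, and only replicate 1 was above. The difference of Lpl was 0.33 ± 0.44, and it turned to -0.28 without knockin replicate 1 and was 0.64 without knockin replicate 2 and 0.64 without knockin replicate 3. Of the 9 genes, Lpl was the single one whose ranges overlapped.

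Over the 9 genes the median difference in the 118Q line was 0.77, from 0.33 to 1.08, and 9 of 9 lay above 0; over all genes the median was 0.06, with 7601 of 12672 above 0. In 8 of 9 genes all knockin arrays lay above all littermate arrays, as they did in 15.1% of all genes. In 0 of 9 they lay below, as in 7.24% of all genes. The 8 include Clec7a, which passed the filter on dim signals only through the 118Q knockin. With calls made where limma's adjusted p (Benjamini-Hochberg, all genes) was below 0.05, the fit called 1 of the 9, Trem2, against 0.189% of all genes (0.0789% called higher and 0.11% lower). The count of members called was 0 with single probe sets, centred arrays, the replicate block, the 18S covariate or only the groups compared, 0 to 2 with single arrays left out, and 8 with array weights. Since the genes were picked from this contrast, these counts carry no weight of their own. Knockin replicate 1 was the highest of all 12 arrays for 9 of 9 members, and for 12.7% of all genes.

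A further probe set exists for Trem2 and for Lpl, both below the filter. The dim Trem2 probe set read 1.12 ± 0.06 in 118Q knockin and 1.23 ± 0.28 in 118Q wild type cerebella (SD, n = 3 each), so it does not show the difference seen with the brighter one. The dim Lpl probe set read 0.84 ± 0.22 in 118Q knockin and 0.77 ± 0.07 in 118Q wild type cerebella, again highest in knockin replicate 1 (1.09).

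**Figure D2:**
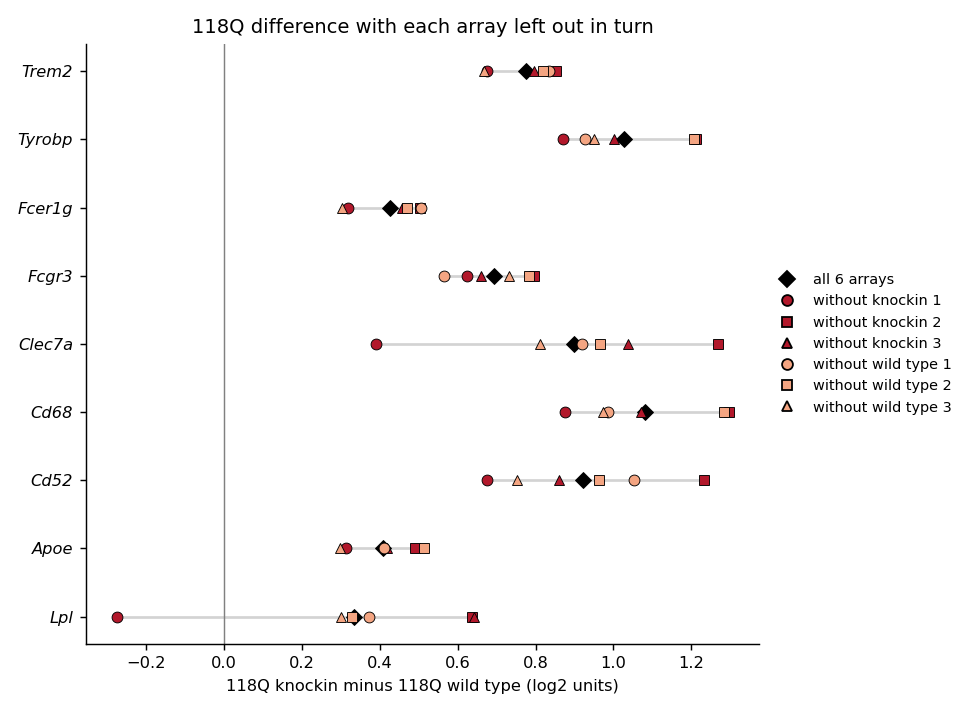
Difference between 118Q knockin and 118Q wild type cerebella in log2 units (x axis) for each gene, with all 6 arrays (diamonds) and with each array left out in turn. Among the 9 genes only Lpl crosses 0, at -0.28 without knockin replicate 1, and Clec7a drops to 0.39 without the same array.

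The 11Q line is the comparison that did not guide the choice of the genes, and here limma was used as a test. It compares the knockin with the short repeat with its own littermates. Of the 9 genes 0 were called, at an adjusted p of 0.939 to 0.994 by limma, and 0 had an unadjusted p below 0.05; limma called 0 of all 12672 genes, and the share of genes under an unadjusted 0.05 was 4.23% (1.1% on the higher side, 3.13% on the lower). The median difference was 0.08, from -0.34 (Lpl) to 0.42 (Clec7a), with 6 of 9 above 0, against a median of -0.04 over all genes. Trem2 read 2.62, 2.55 and 2.73 in 11Q knockin cerebella and 2.55, 2.42 and 2.70 in 11Q wild type cerebella, and differed by 0.08 ± 0.13 (95% interval -0.20 to 0.36). Tyrobp read 4.60, 4.43 and 4.21 in 11Q knockin cerebella and 4.42, 4.32 and 4.60 in 11Q wild type cerebella, and differed by -0.04 ± 0.19 (-0.45 to 0.37). For both genes the arrays of the 11Q groups overlapped.

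For most of the remaining genes the groups of the 11Q line overlapped as well. Fcer1g differed by 0.01 (interval -0.33 to 0.34), Fcgr3 by 0.08 (-0.34 to 0.49), Apoe by -0.02 (-0.30 to 0.25), Cd68 by 0.12 (-0.48 to 0.72) and Cd52 by 0.12 (-0.39 to 0.63). The intervals of Lpl (-1.30 to 0.61) and Clec7a (-0.27 to 1.11) are wide, and both include the 118Q value of the same gene. Clec7a read 1.49, 1.38 and 1.64 in 11Q knockin cerebella, against 1.02, 0.97 and 1.26 in 11Q wild type cerebella. It was the single member whose 11Q ranges were apart, which held for 3.24% of all genes in that direction (7.17% in the other), and limma did not call it (adjusted p = 0.939). In the 11Q wild types, replicate 3 was the highest of its group for 9 of 9 members, and for 46.2% of all genes. Without that array the 11Q differences of Cd68 and Fcgr3 were 0.37 and 0.31.

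**Figure D3:**
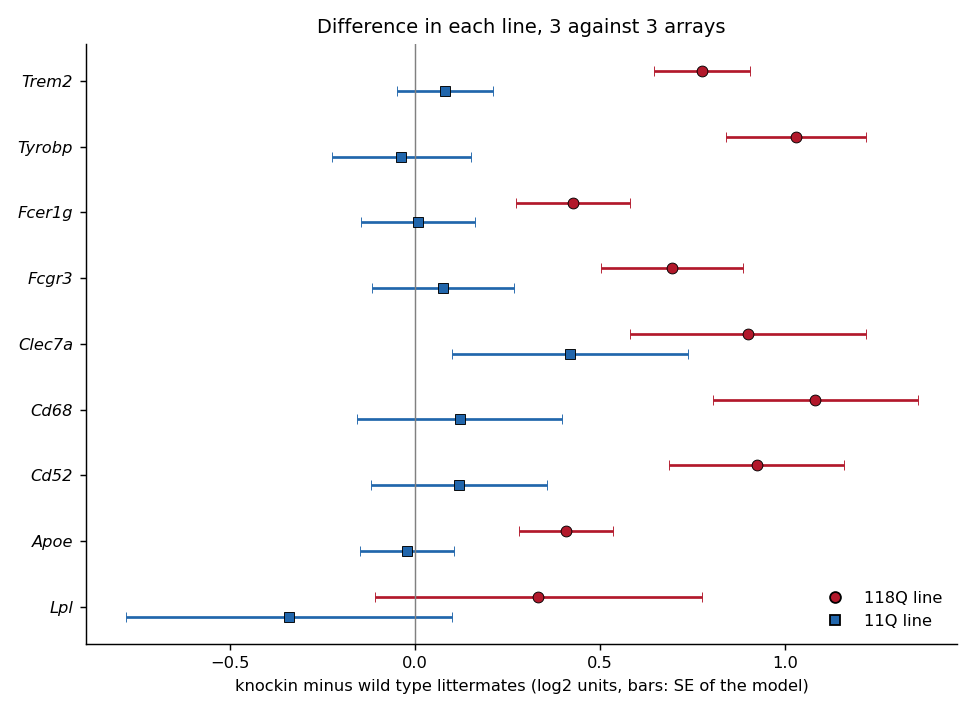
Difference between knockin and wild type littermates (x axis, log2 units, bars are SE) in the 118Q line and in the 11Q line for each gene. The 118Q values run from 0.33 to 1.08, and the 11Q values from -0.34 to 0.42.

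Set side by side, the 118Q difference was above the 11Q difference for 9 of 9 genes, with a median gap of 0.67 between them; over all genes it was above for 62.3%, with a median gap of 0.08. Without 118Q knockin replicate 1 the gap of Clec7a was -0.03, and with array weights that of Lpl was -0.25. The gap was 1.06 ± 0.27 for Tyrobp, 0.96 ± 0.39 for Cd68, 0.80 ± 0.34 for Cd52 and 0.69 ± 0.18 for Trem2, and smallest for Fcer1g at 0.42 ± 0.22. It contains the 118Q contrast, so it is not tested here. Compared directly, 118Q knockin cerebella were above 11Q knockin cerebella by 0.70 (Apoe) to 1.37 (Cd52), and the arrays of these groups were apart in 8 of 9 genes and in 26.5% of all genes. Clec7a was the exception, since the lowest 118Q knockin value of 1.60 lay below the highest 11Q knockin value of 1.64.

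The group means of the wild types differed between the lines as well, which is described and not tested. 118Q wild type cerebella averaged above 11Q wild type cerebella in 9 of 9 genes, and in 52.9% of all genes. The differences ran from 0.25 ± 0.28 (Cd68) to 0.56 ± 0.24 (Cd52, SE of the model), with a median of 0.29. The 9 genes share the same arrays, so their signs are not independent. The members' mean deviation per array overlapped, at -0.19 to 0.15 in 118Q wild type and -0.51 to -0.09 in 11Q wild type cerebella. Cd52 averaged 2.41 ± 0.31 in 118Q wild type cerebella and 1.85 ± 0.21 in 11Q wild type cerebella (SD, n = 3 each). Fcer1g averaged 4.11 ± 0.22 in 118Q wild type cerebella and 3.73 ± 0.15 in 11Q wild type cerebella. Only the ranges of Clec7a were apart, as those of 4% of all genes were in this direction. They barely cleared each other: the lowest Clec7a value was 1.27 in 118Q wild type and the highest 1.26 in 11Q wild type cerebella. Both wild type means of Clec7a, 1.44 and 1.09, were below the filter at 1.58. The order of group means was therefore 118Q knockin, then 118Q wild type, then both 11Q groups for 8 of 9 genes, and in 7 of these the 118Q knockin stood apart from the next group. The neighbours after that overlapped, except that Cd52 in 118Q wild type arrays, where the lowest read 2.07, was apart from the 11Q knockin group, at most 2.05. The labels do not say whether the lines were processed together, so line and processing cannot be told apart.

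The members varied together from mouse to mouse. Over the 12 arrays the 36 pairs of members correlated at a median of 0.87 (Pearson r, 0.60 to 0.96), and after the group means were removed at a median of 0.66 (0.27 to 0.88), with 36 of 36 above 0. These are descriptions: the arrays of a pair share tissue makeup and RNA quality, and group differences enter the first value. The share of all gene pairs above 0 was not computed. Single arrays weigh on the within-group values. 118Q knockin replicate 1 and 11Q wild type replicate 3 were each the highest of their group for 9 of 9 members. They were so for 39.4% and 46.2% of all genes. Tyrobp and Cd68 had the closest match within groups (0.88), followed by Trem2 and Apoe (0.87). Lpl was the least like the others, at 0.60 to 0.74 over the 12 arrays.

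The genes outside the set most like Trem2 over the 12 arrays were Commd4 (r = 0.95), Rps27, a ribosomal protein (0.95), Prss51 (0.95), Psmg4, an assembly factor of the proteasome (0.95), and Cdk5, a neuronal kinase (0.94). After group means were removed they correlated with Trem2 at 0.32 (Rps27) to 0.73 (Cdk5). Those most like Tyrobp were Gstm5 (0.97), Polr2e, a subunit of RNA polymerases (0.97), Tppp3 (0.97), Sh3bgrl3 (0.96) and C1qb, a subunit of complement C1q made by microglia (0.95), at 0.75 (Polr2e) to 0.94 (Sh3bgrl3) within groups. The mean of the 9 members was most like Eif6 (0.96), C1qc (0.95), C1qb (0.94), Vps28 (0.94) and Cuedc2 (0.94). C1qb read 5.67 on average in 118Q knockin and 4.94 in 118Q wild type cerebella, and C1qc 4.76 in 118Q knockin and 4.13 in 118Q wild type cerebella. The 118Q ranges were apart for C1qb and overlapped for C1qc. They were also apart, with the knockin higher, for the genes named for Trem2 and for Gstm5, Polr2e and Tppp3. These genes were picked by r over the 12 arrays, which holds the 118Q difference, so higher knockin means are not independent of the choice. Most of the genes named for likeness are not specific to microglia.

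Other genes of the same machinery were mostly dim or did not pass. Of 18 listed partner receptors of ITAM adaptors and Fc receptors, 3 were above the filter. In the 118Q contrast limma called 0 of them, while 18.7% of all genes had an unadjusted p below 0.05. Of the 3, 1, Siglech, a receptor that pairs with Tyrobp, was at that level (0.40 ± 0.16, adjusted p = 0.208). Fcgr1 differed by 0.15 and Fcgr2b, the inhibitory Fc receptor, by -0.03. Of 24 listed proteins downstream of the ITAM, 13 were above the filter and Syk was not. Limma called 0, and 2 had an unadjusted p below 0.05, both lower, where 6.7% of all genes were lower at that level: Pik3cd, a phosphoinositide 3-kinase subunit (-0.37, adjusted p = 0.193), and Vav3 (-0.57, adjusted p = 0.214). Pik3r1 differed by 0.21 and the phosphatase gene Ptpn6 by 0.17. The median of these 13 genes was 0.09.

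Of 31 other genes known from disease-associated microglia, 23 were above the filter, with a median of 0.07 and 16 above 0 in the 118Q contrast. Limma called 0, and 3 had an unadjusted p below 0.05, all higher, where 12% of all genes were higher at that level. They were Lgals3, a galectin of phagocytes (0.60 ± 0.20, adjusted p = 0.144), Fth1, the ferritin heavy chain (0.23, adjusted p = 0.205), and Npc2, a lysosomal carrier of cholesterol (0.28, adjusted p = 0.225). Cd9, a tetraspanin, differed by 0.29 (adjusted p = 0.268). Lgals3 read 3.68, 3.03 and 3.33 in 118Q knockin cerebella, against 2.88, 2.52 and 2.83 in 118Q wild type cerebella. Cst7, Itgax and Gpnmb, which are defining genes of that state, were below the filter.

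Receptors and other genes of engulfment, the members left out, had a median of -0.02 over 21 of 28 listed genes. Limma called 0 in the 118Q contrast. At an unadjusted p below 0.05, 1 was higher and 3 lower, where 12% of all genes were higher and 6.7% lower. Cd14, a co-receptor for lipopolysaccharide on macrophages, differed by 0.42 (adjusted p = 0.176). Lower were Megf10, an engulfment receptor of astrocytes (-0.57, adjusted p = 0.105), Mfge8, which bridges phagocytes to dying cells (-0.35, adjusted p = 0.22), and Calr, the chaperone calreticulin (-0.32, adjusted p = 0.235).

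Genes that handle the lipoproteins of Apoe and Lpl had a median of -0.12 over 14 of 18 listed. Limma called 0, with 1 higher and 4 lower at an unadjusted p below 0.05, where 12% of all genes were higher and 6.7% lower. Apoc1, an apolipoprotein whose gene neighbours Apoe, differed by 0.41 (adjusted p = 0.228). The Apoe receptor genes Vldlr (-0.45, adjusted p = 0.0693) and Lrp8 (-0.36, adjusted p = 0.172) and the cholesterol transporter gene Npc1 (-0.27, adjusted p = 0.244) were on the lower side. Of 6 listed receptors of osteopontin 3 were above the filter, with 0 called by limma, 0 at an unadjusted p below 0.05 and a median of 0.01. In the 11Q contrast limma called 0 genes of these 6 lists. At an unadjusted p below 0.05, 1 gene was higher and 1 lower, where 1.1% of all genes were higher and 3.13% lower.

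Markers of other cells that could carry the members' transcripts gave these values. Homeostatic microglia genes had a median of 0.23 in the 118Q contrast over 13 of 20 listed, with 12 above 0. Limma called 0 of them, and 3 were higher at an unadjusted p below 0.05, where 12% of all genes were higher. Their log2 summed signal ranged over 8.18 to 8.48 in 118Q knockin and over 7.97 to 8.20 in 118Q wild type cerebella. P2ry12, a purinergic receptor of resting microglia, differed by 0.66 (adjusted p = 0.151), Cx3cr1 by 0.36 and Csf1r, the brightest of the list with Ctss and Olfml3, by 0.07. Border macrophage genes had a median of 0.10 over 8 of 10 listed, with summed signals of 4.93 to 5.17 in 118Q knockin and 4.91 to 5.05 in 118Q wild type cerebella, and Cd163 and Lyve1 were below the filter. Their part in the members' values was not tested.

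Of the monocyte and neutrophil markers 5 of 14 listed were above the filter, with a median of 0.48 and 4 of 5 above 0. S100a9, a calcium-binding protein of neutrophils, read 3.66, 3.83 and 3.04 in 118Q knockin cerebella, against 2.64, 1.81 and 2.87 in 118Q wild type cerebella, 1.07 higher (adjusted p = 0.104). Its partner S100a8 was 0.92 higher (adjusted p = 0.175) and the neutrophil granule gene Ngp 0.48 higher (adjusted p = 0.2), and limma called 0 of the 5. By its unadjusted p below 0.05, 3 of the 5 were higher and 0 lower, where 12% of all genes were higher and 6.7% lower. The list's log2 summed signal was 4.76 to 5.15 in 118Q knockin and 4.04 to 4.67 in 118Q wild type cerebella. Ltf, the neutrophil granule protein lactoferrin, differed by -0.11, with every knockin array below every littermate array. Ccr2, the receptor of inflammatory monocytes, differed by 0.06, and Mpo, Elane, Camp and Plac8 were below the filter. S100a9 averaged 2.00 ± 0.48 in 11Q knockin and 1.32 ± 0.28 in 11Q wild type cerebella (SD, n = 3 each). In the 11Q contrast limma called 0 of the 5 markers. There 1 was higher and 0 lower at its unadjusted p below 0.05, where 1.1% of all genes were higher and 3.13% lower. Lymphocyte markers had a median of 0.00 over 3 of 12 listed and a summed signal of 3.99 to 4.31 in 118Q knockin and 3.93 to 4.31 in 118Q wild type cerebella. Whether blood cells took part in the members' values was not tested.

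**Figure D4:**
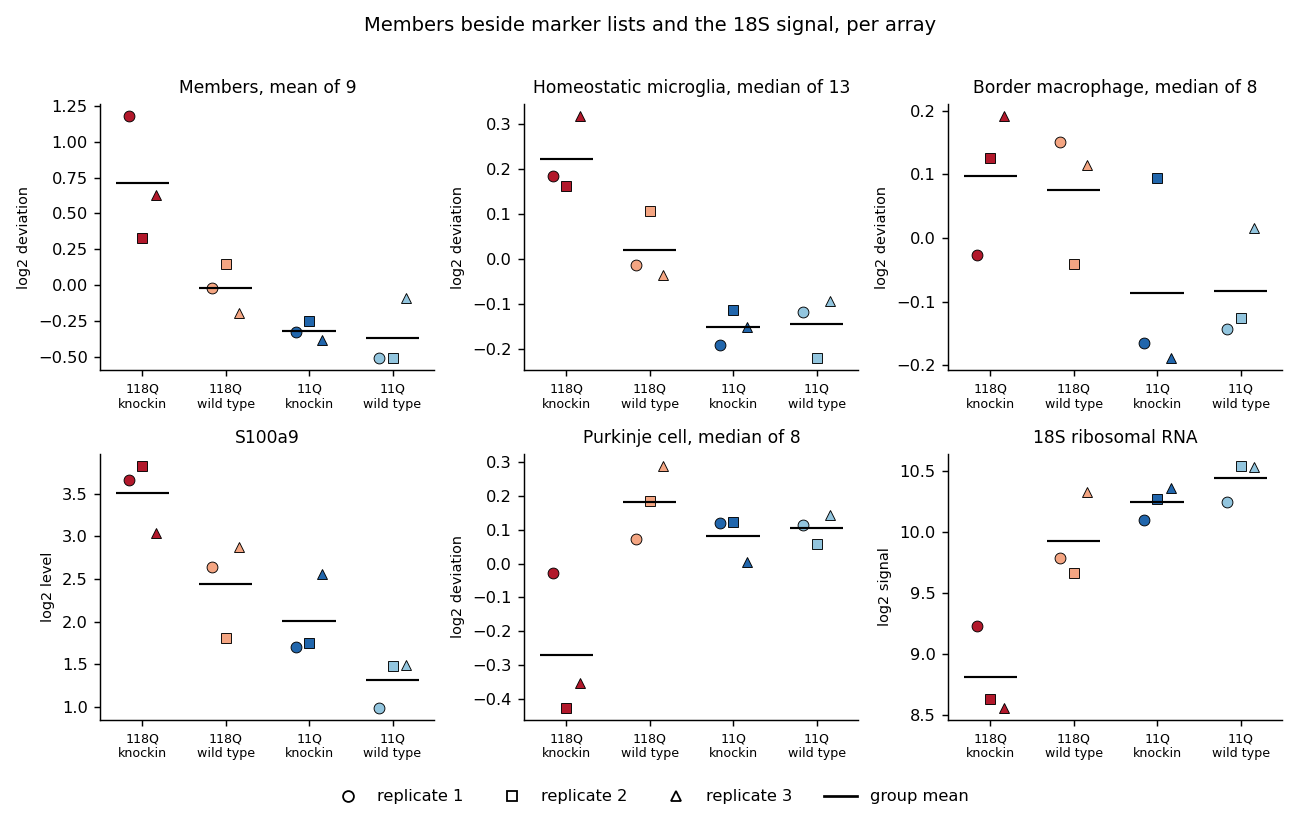
Each panel gives 1 value per array by group: the mean log2 deviation of the 9 members, the median log2 deviation of 3 marker lists, the log2 level of S100a9 and the log2 signal of 18S ribosomal RNA; bars are group means. The means of the members, S100a9 and the homeostatic microglia list are highest in the 118Q knockin group, where the 18S signal is lowest, at 8.56 to 9.23.

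Astrocyte and Bergmann glia genes, listed because astrocytes make Apoe, had a median of 0.00 over 12 of 12, with 0 called by limma; the log2 summed signal was 12.2 to 12.4 in 118Q knockin and 12.2 to 12.5 in 118Q wild type cerebella. Gfap, the filament of reactive astrocytes, differed by 0.57 (adjusted p = 0.221). Choroid plexus genes varied between arrays within the 118Q groups, with a median difference of -0.22. Their summed signals were 8.92 to 11.9 in 118Q knockin and 7.19 to 12.1 in 118Q wild type cerebella. In the 11Q contrast their median difference was -2.09, with 0 of 12 above 0. Limma called 0 of them there, and 11 were lower at its unadjusted p below 0.05, where 3.13% of all genes were lower. Their summed signals were 6.65 to 11.9 in 11Q knockin and 12.01 to 12.09 in 11Q wild type cerebella, so these ranges did not overlap. Their median deviation per array was 0.82 in 118Q knockin replicate 1, where the members' mean deviation was 1.18, 0.39 in replicate 2, where it was 0.33, and -1.79 in replicate 3, where it was 0.63. Their part in the members' values was not tested. Purkinje cell markers had a median difference of -0.42 in the 118Q contrast. Limma called 1 of 8, Slc1a6, lower, where it called 0.11% of all genes lower. Under its unadjusted p of 0.05, where 6.7% of all genes were lower, 4 of these 8 markers were lower. Their median deviation was -0.03 in knockin replicate 1, where the members were highest with a mean deviation of 1.18, and -0.43 and -0.35 in replicates 2 and 3. The endothelial and mural list had a median of -0.53 over 10 of 12, with 0 of the 10 above 0 and 1, Flt1, called lower. By limma's unadjusted p below 0.05, 7 of the 10 were lower, where 6.7% of all genes were. In 6 of the 10 every knockin array lay below every littermate array, as in 7.24% of all genes.

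The signal of 18S ribosomal RNA also separated these groups. It was 8.80 ± 0.37 in 118Q knockin and 9.92 ± 0.35 in 118Q wild type cerebella (SD, n = 3 each), and 10.24 ± 0.13 in 11Q knockin and 10.44 ± 0.17 in 11Q wild type cerebella. With the 18S signal as a covariate the median difference of the 9 members in the 118Q line was 1.05, in place of 0.77. The 9 values then ran from 0.34 (Fcer1g, 0.43 without the covariate) to 2.16 (Lpl, 0.33 without it). Clec7a was 1.90, while Trem2 at 0.79 and Tyrobp at 1.05 hardly moved. Limma called 0 of all genes with this covariate. Within the 118Q knockin group the members were highest in replicate 1, the array with the highest 18S signal of that group (9.23). The 18S ranges of the 118Q groups do not overlap, so the fit with this covariate cannot separate the 18S signal from the group. The part of the 18S signal in the members' values was not tested beyond this fit.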

How the data were processed

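Total RNA of 12 cerebella, 3 per group, was measured with 1 array per mouse. The authors deposited log2 values per probe set, made with RMA per the submitters' processing notes; the sources used here do not give its version. No further normalization was applied. Nothing says which mice share a litter, and p-values measure the spread between these arrays. Probe sets in the dimmest 40% by mean level were dropped (log2 mean up to 1.58), and each symbol of the array annotation was read from its brightest probe set. Means of the 4 groups were estimated jointly with limma 3.58.1 (R 4.3.3), two-sided, with Benjamini-Hochberg adjustment over all genes.

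Members and lists were chosen with earlier results of these data known. Only the 11Q contrast serves as a test of members; in the 118Q contrast the number of members the fit called is given as a description. Named genes were all members; from pathway lists called genes and up to 4 with the smallest p in the 118Q contrast; for likeness the top 5 by Pearson r, clones passed over; and from marker lists the brightest 3, with further markers named after their values were seen. The fit was tested on simulated data. Planned RefSeq proteins are not used here.

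The alternatives were an unfiltered table, a filter at 60%, averaged probe sets, single probe sets, median centring, quantile normalization, a variance trend, array weights, only the groups compared, the replicate number as a block, the 18S signal as covariate, looser call rules, no wild type replicate 3, and leaving out each array.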

Additional observations from a re-analysis of the deposited data

How the results depend on the processing

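The number of genes called by limma in the 118Q contrast, 24 with the settings reported, was unstable. It was 150 with the lowest 60% of probe sets removed, 10 with arrays centred on their median, 43 with quantile normalization, 200 with a variance trend, 3131 with array weights, 5 with the replicate block, 0 with the 18S signal as covariate, 0 with only the groups compared, 3 without wild type replicate 3 of both lines, 391 at an adjusted p below 0.1 and 315 when genes were called by unadjusted p (0.05) and a 1.5-fold minimum. Leaving out single arrays gave 4 (without 118Q knockin replicate 3) to 707 genes (without knockin replicate 1). The share of higher genes, 10 of 24, was 13 of 43 with quantile normalization, 3 of 10 with centred arrays and 0 of 5 with the block, but 2107 of 3131 with array weights, 76 of 150 with the 60% filter, 379 of 707 without knockin replicate 1 and 210 of 391 at an adjusted p below 0.1. Of the 9 members 8 were called with array weights, and 0 with the block, centred arrays, the 18S covariate or only the groups compared. In the 11Q contrast the count of 0 became 1 with only the groups compared and 100 by unadjusted p with that minimum, and no member was called under any alternative, the block included (0 of 9). Same-numbered knockin and wild type arrays deviated with correlations of -0.17 to 0.19, and differently numbered ones with -0.25 to 0.32. With 3 arrays per group these values cannot decide whether same-numbered arrays share a litter or batch.

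The median 118Q difference of the members, 0.77, was 0.62 to 0.85 with single arrays left out, and 0.43 with the lowest 60% removed, where 3 members remained. With the 18S covariate Clec7a and Lpl became 1.90 and 2.16, and with array weights Lpl became -0.19. The median gap between the 118Q and 11Q differences, 0.67, became 0.39 with array weights and 0.98 with the 18S covariate.

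Some differences of the 11Q line changed sign without being called. Tyrobp became 0.00073 with array weights and 0.041 without wild type replicate 3, and Fcer1g became -0.0063 with the 18S covariate. Apoe became 0.0075 with centred arrays, 0.0015 with quantile normalization, 0.023 with array weights and 0.039 without wild type replicate 3. All of these were near 0 with the settings reported. Lpl, at -0.34 with those settings, became 0.062 with array weights. Leaving out single arrays gave -0.13 to 0.065 for Tyrobp, -0.11 to 0.12 for Fcer1g, -0.062 to 0.31 for Fcgr3, -0.049 to 0.37 for Cd68, -0.053 to 0.039 for Apoe and -0.55 to 0.031 for Lpl. The causes were not tested. The members other than Tyrobp, Fcer1g and Apoe are among the dimmest 60% of probe sets on these arrays, and 3 arrays per group limit the precision.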
